A study of Mus musculus with 12 samples.

Results

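A set of 9 genes, listed as p53-responsive stress and checkpoint genes, was read on arrays of mouse keratinocytes carrying extra deltaNp63alpha: Mdm2, Gadd45a, Gadd45b, Ccng1, Ccng2, Plk2, Sfn, Zmat3 and Ei24. They were picked by name as known p53 targets, with earlier results of these data known. Each was measured by the 1 probe that the platform annotation gives to it alone. All 9 of 9 had such a probe, among 6774 named genes and 8875 rows (genes and unnamed probes) in all. The cells were primary keratinocytes from the skin of C57Bl/6NCr mice. An adenovirus brought in deltaNp63alpha or, in the controls, beta-galactosidase, and RNA was taken 41 h after transduction. Cells of both transductions were kept for 24 h in medium with 0.05 mM calcium (low calcium) or with 0.12 mM calcium (high calcium). Each of 12 two-colour arrays, 6 per calcium level, set deltaNp63alpha RNA against beta-galactosidase RNA of the same calcium level. Each level had 3 repeats, run once with the deltaNp63alpha RNA in Cy5 (a forward array) and once with the dyes exchanged (a reversed array), and the 2 arrays of a repeat form a dye-swap pair that counts as 1 replicate. The series' design text calls these technical repeats, so p-values measure the spread between the repeats only, and no array compared the calcium levels directly. The cells were cultures of unstated size and number of animals, and the promoter driving the viral transgene is not given in the sources used here.

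p53 is a transcription factor that DNA damage and other stress stabilise, and it binds DNA as a tetramer on pairs of decamer half-sites. Its targets stop the cell cycle, repair DNA, start apoptosis and, through Mdm2, bring p53 itself back down. deltaNp63alpha, the main p63 isoform of basal keratinocytes, has a DNA-binding domain close to that of p53 but lacks the N-terminal transactivation domain, and it can occupy p53 sites and repress genes there.

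RefSeq promoter windows of GRCm38.p6, from 250 bases before to 50 bases after the gene's start, matched 8 of the 9 genes; Zmat3 is named only. A p53 half-site consensus (searched by name on both strands, without mismatches) was present in 4 of the 8 windows and in 8.36% of all 32851 windows of that length. The windows of Mdm2, Gadd45b and Plk2 are shown because their arrays separated by dye orientation. That of Ei24 is shown because it holds a half-site while its arrays did not separate that way. All run 5′ to 3′ on the gene's strand, and capitals mark matches to the half-site, CRE (TGACGTCA), CCAAT box (CCAAT), GC box (GGGCGG) and TATA box (TATAAA), on either strand.
Mdm2 (chr10:117710709-117711008, minus strand): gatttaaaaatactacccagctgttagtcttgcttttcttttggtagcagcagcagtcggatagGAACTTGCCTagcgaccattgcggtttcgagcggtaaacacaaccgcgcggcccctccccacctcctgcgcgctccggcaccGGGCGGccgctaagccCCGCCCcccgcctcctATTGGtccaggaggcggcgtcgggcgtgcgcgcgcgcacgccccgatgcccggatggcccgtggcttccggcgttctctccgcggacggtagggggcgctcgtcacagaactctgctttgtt
Gadd45b (chr10:80929841-80930140, plus strand): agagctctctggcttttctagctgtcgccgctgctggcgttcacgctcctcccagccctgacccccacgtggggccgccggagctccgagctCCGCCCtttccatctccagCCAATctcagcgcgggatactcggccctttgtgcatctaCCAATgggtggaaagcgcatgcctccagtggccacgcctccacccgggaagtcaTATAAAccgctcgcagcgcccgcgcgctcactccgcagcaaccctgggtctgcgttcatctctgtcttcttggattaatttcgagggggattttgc
Plk2 (chr13:110394794-110395093, plus strand): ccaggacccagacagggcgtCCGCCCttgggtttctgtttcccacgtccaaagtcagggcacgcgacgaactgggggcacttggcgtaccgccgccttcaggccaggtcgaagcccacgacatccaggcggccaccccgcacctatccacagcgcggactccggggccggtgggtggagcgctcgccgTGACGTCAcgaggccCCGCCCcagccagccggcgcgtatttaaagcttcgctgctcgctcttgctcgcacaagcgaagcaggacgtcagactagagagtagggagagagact
Ei24 (chr9:36797285-36797584, minus strand): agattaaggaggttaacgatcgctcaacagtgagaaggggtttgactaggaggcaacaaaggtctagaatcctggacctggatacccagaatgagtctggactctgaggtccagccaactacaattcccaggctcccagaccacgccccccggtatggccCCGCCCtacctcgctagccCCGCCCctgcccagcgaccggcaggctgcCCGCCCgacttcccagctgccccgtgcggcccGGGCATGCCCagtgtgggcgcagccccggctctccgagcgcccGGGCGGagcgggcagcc
In Mdm2 the half-site match GAACTTGCCT began 186 bases before the start, and in Ei24 the match GGGCATGCCC began 10 bases before it. Of the windows not shown, Gadd45a held GGGCTAGCCC 40 bases before its start and Ccng1 held GGGCAAGCCT 185 bases before its start. No half-site match was found in the windows of Gadd45b, Ccng2, Plk2 and Sfn. Plk2 held a CRE 62 bases before its start, a motif of 1.79% of all windows, and Gadd45b a TATA box 46 bases before its start, which 13.6% hold. CCAAT boxes and GC boxes occurred in 37.4% and 35.7% of all windows, and no matches overlapped in the 8 windows. A match describes letters only, and no binding was measured here.

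Each deposited value is a log2 dye ratio, and no source used here states which dye is on top. They were read as Cy5 over Cy3, so that reversed arrays were turned and a pair's value was forward minus reversed, divided by 2. This direction is likely, from the usual order of a dye ratio, but not settled: in the labels channel 2 is always the deltaNp63alpha RNA, also on reversed arrays, and a ratio with channel 2 on top would need no turning. Under that other reading (deposited signs kept) the value of a pair is the mean of its 2 arrays, and its values are given below beside those of the turned reading. With Cy3 on top of every ratio instead, each turned ratio would keep its size and change its sign, a further reading whose values are not listed. The Trp63 probe did not settle the direction: it read -0.98, -0.77, 0.00, -0.999 and -1.71 on forward arrays and 0.57, 0.41, 1.02 and -1.91 on reversed arrays. Its fit was -0.36 ± 0.18 (SE) with reversed arrays turned and -0.33 ± 0.23 with signs kept, and neither passed. With reversed arrays turned its pairs read -0.78 and 0.45 in low calcium and -0.59 and -0.51 in high calcium. These are 3 of 4 pairs below 0, and its turned high calcium ratio was -0.55 ± 0.25. With signs kept its pairs read -0.20, -1.45, -0.18 and 0.51, so that average rests on low calcium repeat 2, and in high calcium it read 0.16. Whether it detects the transgene's transcript is not known. Arrays gave values for 3366 to 9096 of their 9558 probes, and the third repeat of each level and the second of low calcium were the sparse ones.

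The 9 genes showed 2 patterns on the arrays, a grouping made after their values were seen and given as a description. Mdm2, both Gadd45 genes, both cyclin G genes and Plk2 mostly read lower on forward than on reversed arrays, and 23 of their 28 pairs (82.1%) had opposite signs on their 2 arrays. Plk2 alone had opposite signs in 2 of its 5 pairs only, though all 5 read lower on the forward array. Sfn, Zmat3 and Ei24 read above 0 on nearly all arrays of both orientations, and 1 of their 15 pairs (6.67%) had opposite signs. Over all rows 36.6% of 33159 pairs had opposite signs. Every forward array lay below every reversed array for Mdm2, Gadd45b and Plk2, 3 of the 9 genes, against 6.67% of the 7830 rows with at least 3 arrays of each orientation. That separation does not depend on which dye is the numerator. It reads as a lower level in deltaNp63alpha cells if Cy5 is on top and reversed arrays are turned, and as a higher level if Cy3 is on top. With signs kept it is a difference between dye orientations and gives no change in deltaNp63alpha cells. The averages over both levels were then 0.06 for Mdm2, 0.14 for Gadd45b and 0.49 for Plk2. Values of like sign on both orientations, as for Sfn, Zmat3 and Ei24, largely cancel instead when reversed arrays are turned. The values with signs kept are given with each gene.

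**Figure D1:**
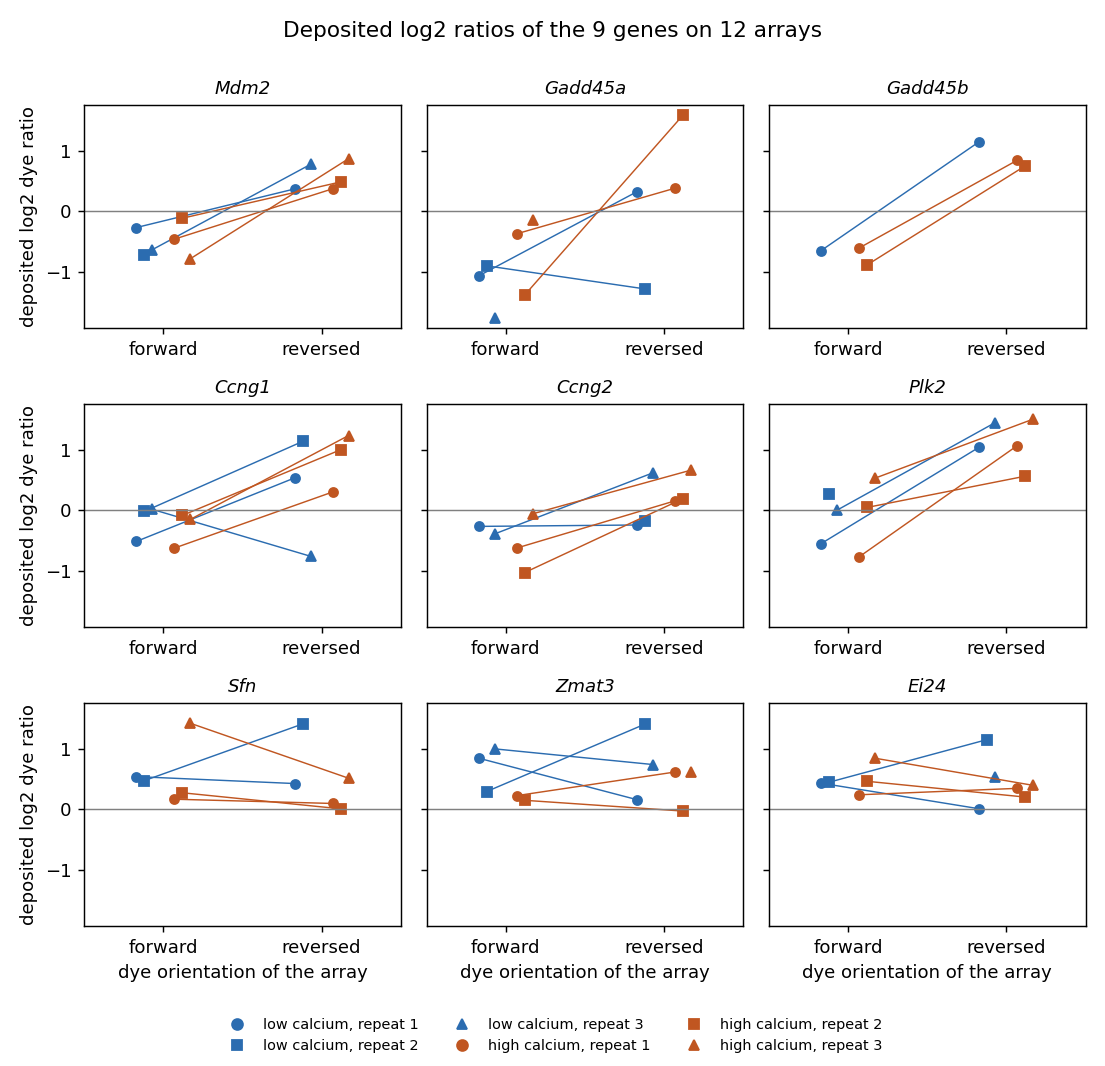
Deposited log2 dye ratios (vertical axis) of the 9 genes on forward and reversed arrays (horizontal axis), 1 panel per gene; colours are calcium levels, symbols are repeats and lines join the 2 arrays of a dye-swap pair. Lines of Mdm2, Gadd45b, Ccng2 and Plk2 climb from forward to reversed in every pair, while those of Sfn, Zmat3 and Ei24 stay mostly above 0 on both sides.

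Mdm2, the ubiquitin ligase that marks p53 for degradation and is itself induced by p53, read -0.27, -0.71 and -0.63 on the low calcium forward arrays and 0.37 and 0.78 on the reversed arrays of repeats 1 and 3. In high calcium it read -0.46, -0.11 and -0.78 forward and 0.37, 0.49 and 0.87 reversed. All 6 forward values were below 0 and all 5 reversed values above 0, with no overlap at either level. The turned log2 ratio was -0.51 ± 0.20 (SE, 2 pairs) in low calcium and -0.51 ± 0.16 (3 pairs) in high calcium, a 1.42-fold and a 1.43-fold lower level, with limma adjusted p of 0.406 and 0.173. It did not pass the threshold (an adjusted p under 0.05 over all rows tested) at either level. With signs kept both values were 0.06.

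The Gadd45 proteins are small stress-induced partners of cell cycle kinases and of the kinases upstream of p38 and JNK. Gadd45a, the p53-induced one, read -1.06, -0.90 and -1.76 on low calcium forward arrays and 0.33 and -1.28 on the reversed arrays of repeats 1 and 2. In high calcium it read -0.37, -1.38 and -0.14 forward and 0.38 and 1.59 on the reversed arrays of repeats 1 and 2. All 6 forward arrays were below 0, but the reversed array of low calcium repeat 2 was as low as they were. Its turned log2 ratio was -0.25 ± 0.27 in low calcium (adjusted p = 0.865) and -0.93 ± 0.27 in high calcium (0.154), each from 2 pairs. With signs kept it read -0.73 in low calcium (adjusted p = 0.0642) and 0.06 in high calcium. It and Ccng2 read below 0 in low calcium under both readings. Gadd45b, which TGF-beta and NF-kappaB also induce, had values in 3 repeats only. It read -0.64 forward and 1.15 reversed in the one low calcium repeat, and in high calcium -0.60 and -0.88 forward against 0.85 and 0.75 reversed. All 3 pairs pointed the same way, at -0.90 in low calcium and -0.72 and -0.82 in high calcium. Its high calcium log2 ratio was -0.77 ± 0.19 (2 pairs, 1.71-fold lower, limma adjusted p = 0.0903), and it could not be tested in low calcium. With signs kept it was 0.03.

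Cyclin G1 and cyclin G2 bind protein phosphatase 2A rather than driving the cell cycle; p53 induces Ccng1 strongly, while Ccng2 is known as a FoxO target that rises in resting cells. Ccng1 read -0.51, -0.02 and 0.02 on low calcium forward arrays and 0.54, 1.14 and -0.76 on the reversed ones. In high calcium it read -0.62, -0.08 and -0.15 forward and 0.30, 1.00 and 1.23 reversed. High calcium repeats did not overlap between orientations, while low calcium repeat 3 ran the other way and gave the one pair above 0, at 0.39 against -0.69 to -0.46 in the other 5. Its log2 ratio was -0.24 ± 0.18 in low and -0.56 ± 0.18 in high calcium (3 pairs each, adjusted p = 0.762 and 0.184), and 0.07 and 0.28 with signs kept. A second probe, shared with Sat2 and so left out, read from -0.82 to 0.37 forward and from -0.55 to 0.07 reversed, with the orientations overlapping. Ccng2 read -0.26 and -0.39 on the low calcium forward arrays of repeats 1 and 3 and -0.24, -0.18 and 0.62 on the reversed ones. In high calcium it read -0.62, -1.02 and -0.06 forward and 0.16, 0.19 and 0.66 reversed. All 5 pairs were below 0 but spread from -0.61 to -0.01. Its log2 ratio was -0.26 ± 0.19 in low (2 pairs) and -0.45 ± 0.15 in high calcium (3 pairs), with adjusted p of 0.759 and 0.218, and -0.07 and -0.11 with signs kept.

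Plk2, a polo-like kinase of centriole duplication that p53 induces, read -0.55, 0.27 and 0.00 on low calcium forward arrays and 1.04 and 1.45 on the reversed arrays of repeats 1 and 3. The high calcium values were -0.77, 0.05 and 0.53 forward and 1.07, 0.56 and 1.5 reversed. All reversed values were above 0 and above every forward value, but the forward values lay on both sides of 0, so most of the difference came from the reversed arrays. The turned log2 ratio was -0.76 ± 0.20 (2 pairs, 1.69-fold lower) in low calcium and -0.55 ± 0.16 (3 pairs, 1.47-fold lower) in high calcium, with limma adjusted p of 0.18 and 0.143. With signs kept it was 0.49 at both levels (adjusted p = 0.167 and 0.27), in the opposite direction.

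Sfn, Zmat3 and Ei24 showed no such separation by dye orientation. Sfn encodes 14-3-3 sigma, the epithelial 14-3-3 protein that holds Cdk1 with cyclin B in the cytoplasm at the G2 checkpoint. It read 0.54 and 0.47 forward and 0.42 and 1.41 reversed in low calcium (repeats 1 and 2), and 0.17, 0.27 and 1.42 forward and 0.10, 0.01 and 0.51 reversed in high calcium. All 10 values were above 0 and the orientations overlapped. Its turned log2 ratio was -0.20 ± 0.20 in low and 0.21 ± 0.16 in high calcium (adjusted p = 0.828 and 0.722), against 0.71 and 0.41 with signs kept (0.0796 and 0.34). Zmat3, a zinc-finger protein that binds RNA, read 0.84, 0.29 and 1.00 forward and 0.16, 1.4 and 0.74 reversed in low calcium. In high calcium it read 0.23 and 0.15 on the forward arrays of repeats 1 and 2 and 0.61, -0.03 and 0.61 on the reversed ones. Of 11 values 10 were above 0, and the turned ratios were -0.03 ± 0.18 and -0.05 ± 0.22 (adjusted p = 0.981 and 0.945). With signs kept Zmat3 passed in low calcium, at 0.74 ± 0.15 (limma adjusted p = 0.0336), where that reading called 16.4% of all rows tested in low calcium, and it read 0.24 in high calcium, where that reading called 0% of rows.

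Ei24, a membrane protein of the endoplasmic reticulum that p53 induces, read 0.43 and 0.45 forward and 0.01, 1.15 and 0.53 reversed in low calcium. The high calcium values were 0.24, 0.46 and 0.84 forward and 0.35, 0.20 and 0.39 reversed. All 11 values were above 0, and the turned ratios were -0.07 ± 0.19 and 0.10 ± 0.16 (adjusted p = 0.959 and 0.853), against 0.51 and 0.41 with signs kept. The 95% intervals of the turned ratio ran from -0.49 to 0.35 in low and from -0.24 to 0.44 in high calcium for Ei24. For Sfn they ran from -0.63 to 0.22 and from -0.14 to 0.56, and for Zmat3 from -0.42 to 0.36 and from -0.53 to 0.42. Some of them reach as far below 0 as the estimate for Mdm2, so they do not show that the 3 genes were unaffected. For all 3 the low calcium pair farthest from 0 was that of repeat 2, at -0.47 for Sfn, -0.56 for Zmat3 and -0.35 for Ei24. The reversed array of that repeat had the widest spread of all 12, a scaled median absolute deviation of 1.325 against 0.379 to 1.148 on the others, and its part in these values was not tested.

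**Figure D2:**
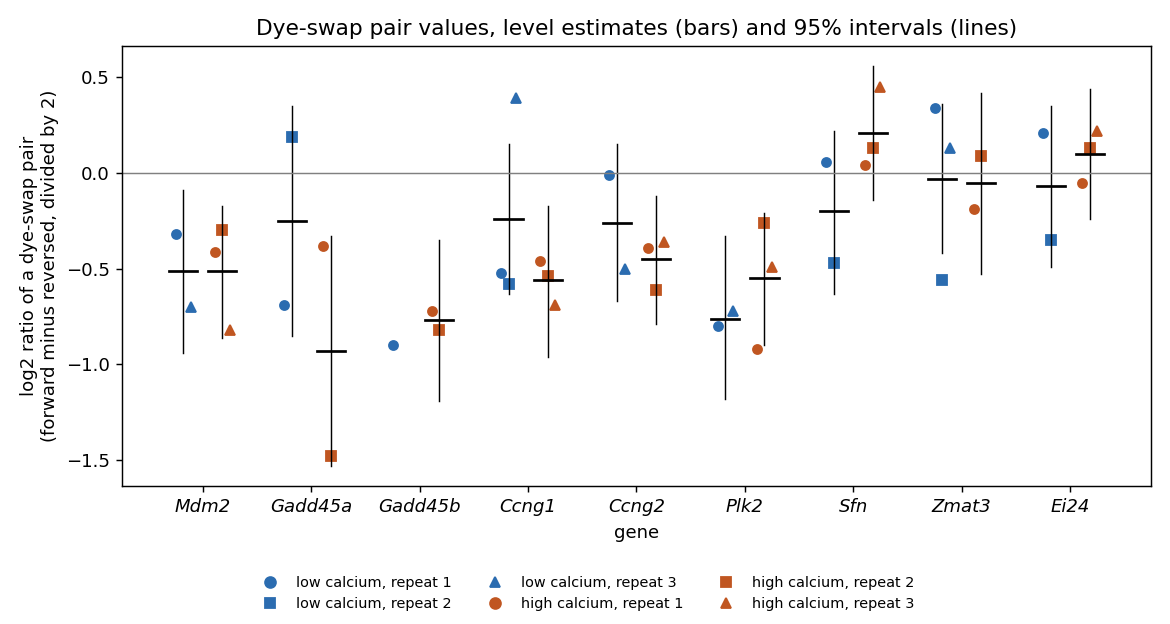
Log2 ratio of each dye-swap pair (vertical axis, forward minus reversed, divided by 2) for the 9 genes (horizontal axis); coloured symbols are pairs, black bars the fitted level estimates and black lines their 95% intervals. Every pair of Mdm2, Gadd45b, Ccng2 and Plk2 lies below 0, and the pairs of Sfn, Zmat3 and Ei24 lie on both sides of it.

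In low calcium 0 of the 8 genes tested passed the threshold, where 0.409% of all rows did (19 of 4646). At limma's unadjusted p under 0.05, 2 of the 8 (Mdm2 and Plk2) were lower, against 5.38% of rows lower at that p, and the median log2 ratio of the 8 was -0.24 against 0.02 over all rows. These counts and medians hold for the turned reading only. With signs kept 6 of the 8 were above 0 with a median of 0.28. At an unadjusted p under 0.05, 3 of them were higher (Sfn, Zmat3 and Ei24) and 1 lower (Gadd45a), against 20.7% of rows higher and 21.4% lower. In high calcium 0 of 9 passed, where 1.39% of rows did (101 of 7263). At an unadjusted p under 0.05, 6 of the 9 were lower and none higher, against 8.98% of rows lower. The 6 were Mdm2, Gadd45a, Gadd45b, Ccng1, Ccng2 and Plk2, and the median of the 9 was -0.51 against 0.01 over all rows. With signs kept 8 of the 9 were above 0 with a median of 0.24, and 2 (Plk2 and Ei24) were higher at an unadjusted p under 0.05, against 5.80% of rows. At the adjusted threshold and with signs kept, 1 of 8 genes passed in low calcium (Zmat3) and 0 of 9 in high calcium.

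Whether the ratio depended on calcium was tested by the difference, high minus low, in 8 genes. None passed, and no row of the 4209 tested did (0%), all 8 having an adjusted p of 1; at an unadjusted p under 0.05 there were 0 of the 8 genes and 107 of all rows. The differences farthest from 0 were those of Gadd45a, at -0.68 ± 0.39 (SE), and of Sfn, at 0.41 ± 0.25 (SE). For Mdm2 the difference was 0.00 with a 95% interval from -0.55 to 0.55, so shifts of that size between the levels could not be seen.

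Averaging both calcium levels in the same fit, a comparison chosen after the data were seen, gave 3 of the 9 genes an adjusted p under 0.05, all lower under the turned reading. The share of all 7498 rows called was 3.59%, and 2.33% were called lower. Plk2 fell by 0.66 ± 0.13 on the log2 scale (1.58-fold, limma adjusted p = 0.0122), lower in 5 of 5 pairs. Gadd45b fell by 0.83 ± 0.16 (1.78-fold, 0.0183), lower in 3 of 3 pairs. Mdm2 fell by 0.51 ± 0.13 (1.43-fold, 0.0462), lower in 5 of 5 pairs. Gadd45a, Ccng1 and Ccng2, at -0.59, -0.40 and -0.35, had adjusted p of 0.152, 0.126 and 0.166. At an unadjusted p under 0.05, 6 of the 9 were lower, against 10.8% of rows lower. The median of the 9 was -0.40 against 0.02 over all rows. With signs kept the median was 0.17 against 0.01, with 7 of the 9 above 0. At an unadjusted p under 0.05, 4 were then higher (Plk2, Sfn, Zmat3 and Ei24) and 0 lower, against 16.9% of rows higher.

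The Mdm2 call was lost without 5 of the 6 pairs in turn (adjusted p from 0.0878 to 0.207), all but low calcium repeat 2, where its pair has no value. The Plk2 call was lost without low calcium repeat 1 (0.0878) or high calcium repeat 1 (0.102), and its ratio was -0.08 on forward arrays alone against -1.14 on reversed arrays alone. Gadd45b, with values in 3 pairs, could not be tested without any one of them. With arrays instead of pairs as replicates the calls of Gadd45b and Plk2 were lost (adjusted p = 0.0634 and 0.0636), and with a trended and robust variance all 3 were (0.148 to 0.22). With signs kept the averages of Mdm2, Gadd45b and Plk2 were 0.06, 0.14 and 0.49, none passing. Zmat3 was then the one of the 9 that passed (0.49 ± 0.12, adjusted p = 0.038), where 16.0% of rows did, beside Sfn at 0.56 (0.0552) and Ei24 at 0.46 (0.0507).

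**Figure D3:**
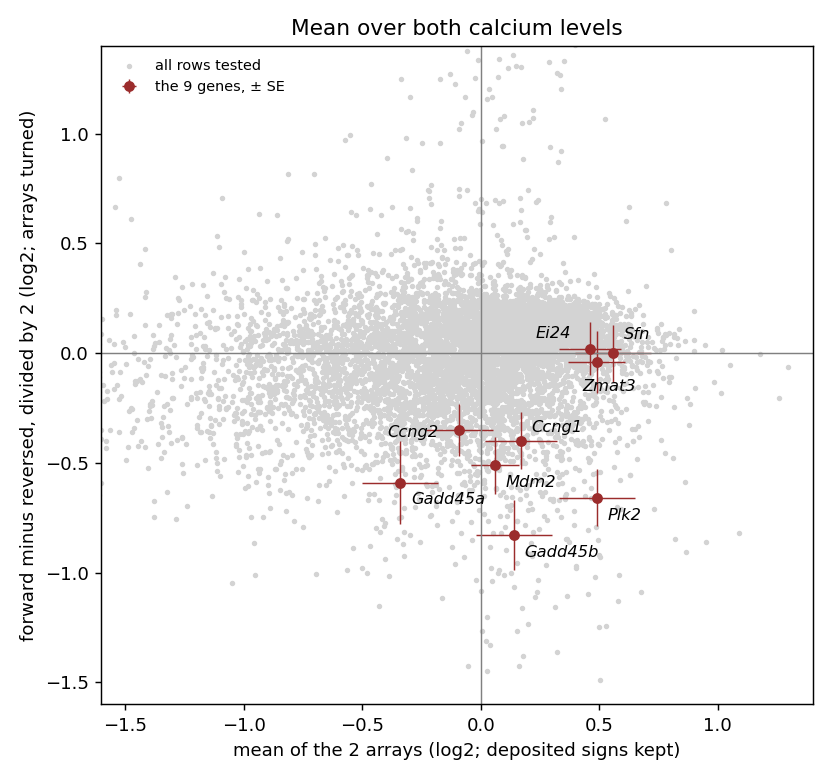
Average over both calcium levels of each row's pair value with reversed arrays turned (vertical axis, log2; forward minus reversed, divided by 2) against that with deposited signs kept (horizontal axis, log2; the mean of both arrays); grey points are all 7498 rows tested, 69 of which lie outside the axes, and red points with SE bars are the 9 genes. Mdm2 and Gadd45b sit low and near the vertical line, Plk2 low and to the right, and Sfn, Zmat3 and Ei24 to the right and near the horizontal line.

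Other genes of the pathway were read from lists chosen with earlier results of these data known, with values given for the average of both levels, first with reversed arrays turned. The choice of reading moved most of these lists, so no direction of a list is settled. Of 33 other p53 targets 13 were named on the arrays and 12 tested, 6 below 0 and 6 above, with a median of 0.01. Cdkn1a, which encodes the cell cycle inhibitor p21, was the 1 called, at -1.01 ± 0.14 (limma adjusted p = 0.00241). With signs kept 9 of the 12 lay above 0 with a median of 0.18, and 3 were called, all higher. They were Xpc, a DNA damage sensor, at 0.60 (limma adjusted p = 0.0435), Gtse1, a p53 antagonist, at 0.45 (0.0466), and Cdkn1a itself at 0.58 (0.0495), a call in the opposite direction. Of the p53 family and its regulators 8 of 21 were tested and 0 called, with a median of 0.00; Trp53 itself was not among the named genes. The smallest p there belonged to Mdm4, the Mdm2 partner that also restrains p53, at -0.36 ± 0.13 (adjusted p = 0.189) and -0.75 with signs kept (0.18). With signs kept the list's median was -0.06 and 1 was called, Ppp1r13b, a p53 cofactor, at 0.41 (adjusted p = 0.0457). Of the Gadd45 family and its kinase partners 4 of 13 were tested and 0 called, the smallest p being that of Map2k6, a kinase that activates p38, at -0.37 ± 0.11 (adjusted p = 0.0969) and -0.25 with signs kept. With signs kept 1 of the 4 was called, Cdk1, the mitotic kinase, at 0.39 (limma adjusted p = 0.034), which read 0.26 with arrays turned. Gadd45g read 0.05 turned and 0.22 with signs kept.

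Of cyclins and cyclin-dependent kinases 16 of 30 were tested, 10 of them below 0, with a median of -0.01. Ccni, which encodes cyclin I, was called at -0.54 ± 0.12 (limma adjusted p = 0.0228). With signs kept 12 of the 16 lay above 0 with a median of 0.14, and 2 were called, both higher. They were Ccnc, cyclin C, at 0.76 (limma adjusted p = 0.0266), and Ccni at 0.36 (0.045), a call in the opposite direction. Of polo-like and checkpoint kinases and phosphatases 8 of 13 were tested and 0 called, 7 of the 8 above 0, with a median of 0.17. Wee1, the kinase that inhibits Cdk1, read 0.38 ± 0.14 there (adjusted p = 0.21) and -0.12 with signs kept, and Plk1, the mitotic relative of Plk2, read 0.15 ± 0.13 (adjusted p = 0.647) and 0.29. With signs kept 6 of the 8 lay below 0 with a median of -0.15, and the mitotic kinases Bub1b and Nek2 were called lower, at -0.56 (limma adjusted p = 0.0307) and -0.96 (0.0255). The 14-3-3 genes besides Sfn, which bind phosphorylated proteins, had 3 of 6 tested, all below 0, with a median of -0.41. Ywhag was called at -0.53 ± 0.12 (adjusted p = 0.0234). With signs kept all 3 lay above 0 instead, from 0.06 for Ywhag to 0.25, with a median of 0.22 and 0 called. Of immediate early and stress genes 14 of 22 were tested, 7 below 0, with a median of -0.08. Hmox1, heme oxygenase 1 of the oxidative stress response, was called at -0.85 ± 0.16 (adjusted p = 0.0167) and read -0.04 with signs kept, where the list's median was 0.00 and Nfkbia, the NF-kappaB inhibitor, was the 1 called, at 0.41 (adjusted p = 0.0482).

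**Figure D4:**
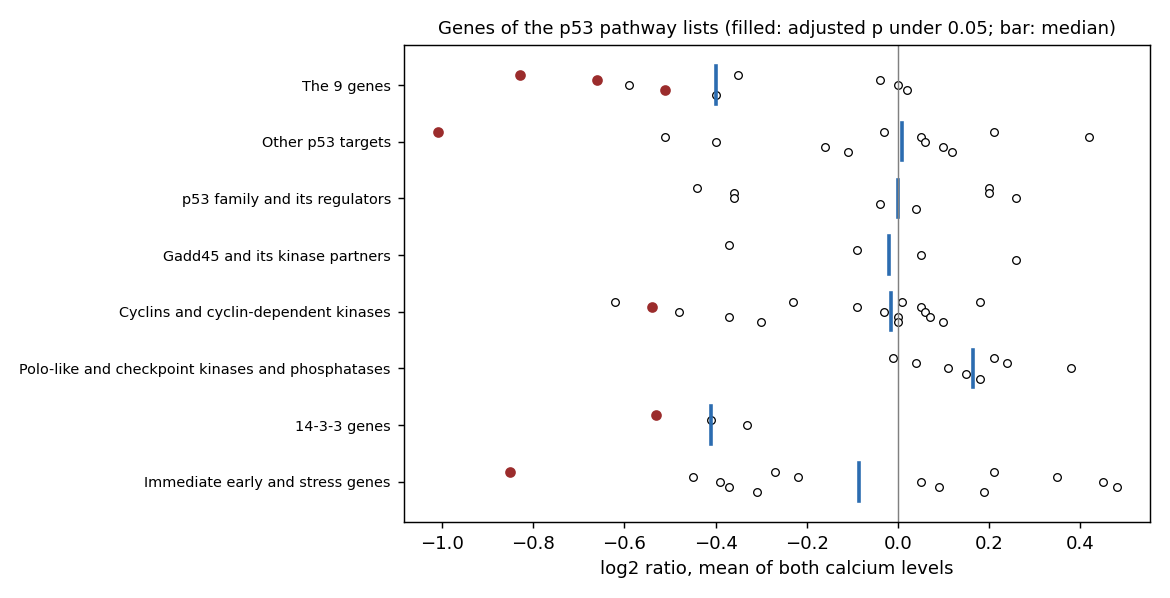
Log2 ratio averaged over both calcium levels (horizontal axis, reversed arrays turned) of the 9 genes and of the genes of each list (rows); filled red points had an adjusted p under 0.05, open points did not, and blue bars are medians. The filled points are Mdm2, Gadd45b and Plk2 among the 9, and Cdkn1a, Ccni, Ywhag and Hmox1 in the lists, all below 0 under this reading, while with signs kept Cdkn1a and Ccni pass above 0.

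Dye ratios hold no level of a gene, so marker ratios between cultures of the same cells cannot check the keratinocyte label. In bulk RNA fewer cells of a type and less RNA per cell cannot be told apart. Of 13 keratinocyte markers 7 were tested in the average, all below 0 with a median of -0.25. Krt10, a keratin of the first differentiated layer, was the 1 called, at -1.45 ± 0.17 (limma adjusted p = 0.00175) and 0.03 with signs kept. With signs kept 5 of the 7 lay above 0 with a median of 0.23, and 3 were called, all higher: Krt5, the basal keratin, at 1.30 (limma adjusted p = 0.0189), Itgb4, an integrin of basal cells, at 0.57 (0.0312), and Lor, loricrin of the cornified layer, at 0.41 (0.038). Markers of fibroblasts (5 of 8 tested, -0.08 to 0.20), melanocytes (1 of 6, 0.29), immune cells (6 of 7, -0.10 to 0.37) and endothelial cells (3 of 4, -0.25 to 0.29) had 0 called. With signs kept these ranges were -1.09 to 0.37, -0.09, -0.53 to 0.48 and -0.69 to 0.23. Lum of fibroblasts (-1.09, limma adjusted p = 0.0442) and Cdh5 of endothelial cells (-0.69, 0.0231) were then called lower. Their part in the values of the 9 genes was not tested.

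The genes whose pair values ran closest to those of each member are a description over 4 to 6 pairs of the same arrays. Mdm2 was nearest to Mrps12 and Pdgfb, with root mean square differences of 0.155 and 0.158 on the log2 scale over 5 pairs. Plk2 was nearest to Skap2 (0.2) and Nfs1 (0.219), and Gadd45a to Insig2 (0.226) and Rnf11 (0.248). Ccng1 was nearest to Fxr2 (0.271) and Klf6 (0.294), and Ccng2 to Zbtb7b (0.131) and Medag (0.138). Sfn was nearest to Vars2 (0.0349) and Crp (0.0666), Zmat3 to Zfp788 (0.0668) and 4833420G11Rik (0.103), and Ei24 to Bcl2l1 (0.0421) and Pigf (0.0476). No member was among the candidates, and Gadd45b had too few pairs.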

How the data were processed

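Two-colour spotted cDNA arrays compared deltaNp63alpha with beta-galactosidase RNA, with dye labelling by Genisphere reagents, per the labels' protocols. The authors deposited log2 dye ratios, centred on 0; the base was inferred from their range (-7.88 to 4.598), and how spots were scanned, filtered and normalised is not given in the sources used here. Arrays carry no counts, so their number limits the precision.

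Of 9558 probes 7457 had 1 gene symbol in the platform annotation, 481 several and 1620 none; 7368 symbols were updated through their gene ID (GRCm38.p6), and probes of 1 gene were averaged. Arrays were centred on their median, and a pair needed a value on both arrays. One model held the 3 low and 3 high calcium pairs, fitted with limma 3.58.1 in R 4.3.3 (lmFit and eBayes, 9.55 prior degrees of freedom) and adjusted by Benjamini-Hochberg over all rows tested. A level needed at least 2 pairs; the average over levels, added after the data were seen, needed 3 with at least 1 at each level. The procedure was tested on simulated data. Alternatives covered orientation, arrays as replicates, 1-array pairs, scaling, moderation, probes, blocks and left-out pairs.

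All 9 members are named, with Trp63; of each list, called genes, otherwise those among the 2 of smallest p. Plk1 in the average, Gadd45g, the shared Ccng1 probe and the list genes called with signs kept were added after their values were seen. The likest genes are the 2 of smallest root mean square difference, over at least 4 pairs, whose own size is at least 0.5 times the member's. The members and lists were chosen with earlier results of these data known.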

Additional observations from a re-analysis of the deposited data

How the results depend on the processing

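Mdm2, Gadd45a, Gadd45b, Ccng1, Ccng2 and Plk2 kept their negative sign in high calcium under all settings tried other than kept signs, ranging from -1.3 to -0.0622, while their calls moved. That sign could not change in settings that altered only the variance, the rows kept or the low calcium pairs. It could not change with probes as separate rows either, as each gene had 1 probe of its own. Nor could it change without a high calcium pair, since all high calcium pairs of these genes were below 0. All these settings therefore do not bear on it. With signs kept, 1 member passed in low calcium (763 rows) and 1 in the average (1203 rows), 0 rows passed in high calcium, and these ratios turned: Mdm2 0.0628, 0.0631 and 0.0629 (low, high, average), Ccng1 0.0672, 0.28 and 0.17, Plk2 0.49 in each, Gadd45a 0.0561 (high) and 0.78 (difference), Gadd45b 0.0284 and 0.14 (high, average), Sfn 0.71 (low) and -0.30 (difference), Zmat3 0.74 and 0.24, Ei24 0.51 (low). Reversed arrays alone gave Gadd45a 0.47 in low calcium and Sfn -0.20 and Ei24 -0.31 in high calcium. With them 1 member passed in low calcium and 1 in the average. Rows passing were 330 of 5340 tested, 1 of 8232 and 584 of 8256 (low, high, average). Forward arrays alone gave Sfn 0.51, Zmat3 0.71 and Ei24 0.44 in low calcium, Zmat3 0.19 in high calcium and Gadd45a 0.61 in the difference, with 33, 0 and 1532 rows. Arrays on the same spread gave Zmat3 0.0223 and Ei24 0.0843 in low calcium, with 0, 1 and 56 rows and 0 members in the average. The array set block gave Zmat3 0.0643 in low calcium, with 42 rows in low calcium and 1 in the difference. Keeping 1-array pairs gave Gadd45a 0.0902 in the difference, with 0, 0 and 4 rows and 0 members in the average. Arrays as replicates gave 2 of 4621, 16 of 7157 and 96 of 7498 rows tested, and 1 member in the average. A trended variance gave 0, 0 and 10 rows and no moderation gave 0 rows in all 3, each with 0 members in the average. Levels fitted alone gave 49 of 4646 rows tested in low calcium and 236 of 7263 in high calcium, with 2 members (Gadd45b and Ccng1) in high calcium. Rows with all pairs gave 33 of 2029 tested (high) and 51 of 1381 tested (average). Only 1 member was tested in that average, and it was not called, so this setting cannot show whether the calls of Mdm2, Gadd45b and Plk2 hold.

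Without 1 pair at a time, rows called ran from 6 to 51 in low calcium, from 33 to 151 in high calcium, from 0 to 1 in the difference and from 61 to 360 in the average, members called in the average from 0 to 3, and Zmat3 in low calcium from -0.21 to 0.24. The lowest counts came without low calcium repeat 1, at 6 of 2526 rows tested for its level and 61 of 4490 for the average. Dropping high calcium repeat 1 gave 33 of 2291 and 107 of 4722, and dropping repeat 2 gave 34 of 2073 and 101 of 4437. These averages tested 8 members each and called none, Gadd45a and Plk2. The main fit tested more rows (4646 for the low level, 7263 for the high level, 7498 for the average). A lower count is therefore not by itself a smaller share of rows.

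Deviations of same-numbered repeats of the 2 levels had correlations of -0.0262, -0.108 and 0.204 over 1381 rows. Those of repeats with unlike numbers ran from -0.29 to 0.271. With so few repeats at each level, these values cannot show whether the repeat number pairs anything beyond the dye swap. With the replicate block 3985 rows and 8 members were tested in each comparison. Of these rows 52 passed in low calcium, 95 in high calcium, 2 in the difference and 146 in the average. They included 1 member in high calcium (Gadd45a) and 2 in the average (Gadd45a and Plk2), and Zmat3 read 0.0257 in high calcium. The cause of these shifts was not tested. No signal over background was given, so dim spots could not be told from bright ones.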
